A study of Homo sapiens with 29 samples.

Results

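The smooth muscle contractile genes were the 10 rows with the symbols ACTA2, ACTG2, TAGLN, CNN1, CNN2, MYL9, TPM1, TPM2, CALD1 and MYOCD, out of 60675 genes in the deposited count table, followed across all 10 sample groups. Smooth muscle contracts when myosin with a phosphorylated light chain pulls on actin filaments, and tropomyosin, caldesmon and calponin sit on those filaments and regulate the pulling. Many of the genes for these proteins carry CArG boxes, which bind serum response factor (SRF). SRF is switched on by the actin-sensing MRTF coactivators in many cell types and by myocardin (MYOCD) in muscle. The same genes are also used by other cells that build stress fibres, such as activated fibroblasts.

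The cells were WM239A, a human metastatic melanoma line. 9 of the 10 groups were WM239A overexpressing BRAF-V600E, the constitutively active kinase of many melanomas, and 1 group was the vector line without drug. Drug-treated cells received LGX818 (encorafenib), an inhibitor of mutant BRAF, at 500 nM. The study compared continuous with intermittent dosing. BRAF-V600E cells were measured without drug (untreated), after 20 hours of drug, after 7 days of drug (week 1), and after 14, 21 and 28 days of continuous drug (weeks 2, 3 and 4). In the intermittent schedule the 7 days of drug were followed by 7 days of DMSO (week 2 off), then 7 days of drug again (week 3 on), then 7 days of DMSO again (week 4 off). The vector cells had no drug. Each group held 3 libraries, except week 4 under continuous drug, with 2, giving 29 in all. No label ties the replicates of a group to cultures grown apart, so p-values here reflect the spread between libraries, which may be technical. All groups but vector share the overexpressed BRAF-V600E.

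Libraries held 22934039 to 35804978 counts in genes. BRAF averaged 894.8 CPM (counts scaled to 1000000 by library size and TMM factor) in untreated cells against 40.2 CPM in vector cells. Of 10 melanocyte markers, 8 or 9 averaged above 1 CPM in every group, while their summed level differed between groups, as given below. DUSP6, which ERK signalling induces, averaged 108.7 CPM in week 3 on cells against 657.8 CPM in week 2 off cells, the direction their labels give, although the table names the week 3 intermittent columns as off drug. 4 libraries stood apart from both others of their group in their counts (week 2 continuous replicate 3, week 2 off replicate 3, week 3 continuous replicate 1 and week 3 on replicate 1), and each result is stated without one of them where that ends a call or moves a called value by over 1.5 times. In bulk RNA, more cells that express a gene and more RNA per cell cannot be told apart.

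All 10 genes were among the 20494 that passed the filter on low counts. TPM1, CALD1, TAGLN, CNN2, ACTA2 and TPM2 averaged above 1 CPM in each of the 10 groups. ACTG2, CNN1, MYL9 and MYOCD did so in some groups at most, and passed the filter through the groups in which they were high, so a count over all 10 genes rests in part on the filter, and the count over the first 6 is given beside it. Divided by exon length, the levels in week 4 continuous cells ran from 302 CPM per kb for CALD1 and 151 CPM per kb for CNN2, through 63.3 for TPM1, 23.9 for ACTA2, 21.0 for TPM2 and 8.44 for TAGLN, to 2.24 for CNN1, 1.75 for MYOCD, 1.34 for MYL9 and 0.226 CPM per kb for ACTG2. In the same unit, untreated cells had 30.7 for CALD1, 15.6 for CNN2, 8.14 for TPM2, 6.0 for ACTA2, 3.02 for TPM1 and 0.502 CPM per kb for TAGLN. Exon length here is the union of the exons of all transcripts of a gene, 12.88 kb for TPM1, 2.976 kb for ACTA2 and 3.248 kb for TPM2. Values per length may therefore be too low for genes with many transcripts, and the rank of TPM1 per length rests on this. In CPM, TPM1 stood above ACTA2 and TPM2 in week 4 continuous cells and also in untreated cells (38.9 against 17.85 and 26.4 CPM).

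Promoter windows from RefSeq (GRCh38.p14, 250 bases before to 50 after a start) were present for 7 of the 10 genes. A CArG box was found in the windows of ACTG2 and CNN2. An inexact one, with 1 base of the middle 6 other than A or T, was found in 1 window of ACTA2 and 1 of CALD1. Of 35116 windows, 1.29% held a CArG box and 6.94% an inexact one (both strands searched, each box reading as one on either strand). The 3 windows below are shown for their boxes, in capitals. ACTG2 (chr2:73892758-73893057, plus strand) had boxes starting 110 and 73 bases before the start, and CNN2 (chr19:1026358-1026657, plus strand) had 1 starting 89 bases before it. The ACTA2 window at its downstream start (chr10:88952724-88953023, minus strand) had inexact boxes 121 and 71 bases before it.
ACTG2: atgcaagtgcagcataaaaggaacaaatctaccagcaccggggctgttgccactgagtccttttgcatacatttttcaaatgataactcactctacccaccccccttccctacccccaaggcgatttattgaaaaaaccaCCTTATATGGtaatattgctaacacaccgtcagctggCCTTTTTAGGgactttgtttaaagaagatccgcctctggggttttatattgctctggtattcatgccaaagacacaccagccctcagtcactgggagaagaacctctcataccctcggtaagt
CNN2: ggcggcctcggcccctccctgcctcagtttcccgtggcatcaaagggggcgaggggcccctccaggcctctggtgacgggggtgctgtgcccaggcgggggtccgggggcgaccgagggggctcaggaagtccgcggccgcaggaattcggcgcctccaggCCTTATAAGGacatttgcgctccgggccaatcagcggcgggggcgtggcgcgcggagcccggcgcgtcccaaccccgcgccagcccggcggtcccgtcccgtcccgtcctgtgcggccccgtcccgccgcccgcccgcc
ACTA2: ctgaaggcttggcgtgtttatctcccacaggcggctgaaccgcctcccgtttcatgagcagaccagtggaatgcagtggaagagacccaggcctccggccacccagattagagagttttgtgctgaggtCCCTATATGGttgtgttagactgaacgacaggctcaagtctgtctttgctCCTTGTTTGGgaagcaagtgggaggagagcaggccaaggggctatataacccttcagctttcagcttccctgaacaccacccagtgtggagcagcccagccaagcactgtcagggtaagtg
The TEAD motif GGAATG, searched on both strands, was found in that ACTA2 window and in 2 of 4 CALD1 windows, against 14.0% of all windows. The windows of CNN1, TPM1 and TPM2 held none of these motifs.

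Without drug, overexpression of BRAF-V600E went with lower levels of some contractile genes. Relative to vector cells, 0 of the 10 genes were higher and 3 were lower in untreated BRAF-V600E cells, all 3 among the 6 genes detected in every group (edgeR's quasi-likelihood test, adjusted p under 0.05). Of the 20494 tested genes, 1442 were higher and 2034 (9.92%) lower. CNN2, a calponin found in many cell types, read 51.9, 60.0 and 58.5 CPM in untreated BRAF-V600E cells and 119, 120 and 109 CPM in vector cells. These groups were far apart, a log2 difference of -1.03 ± 0.08 (SE, adjusted p = 8.97e-12). CALD1, the actin-binding regulator caldesmon, averaged 302 ± 12.8 CPM in untreated BRAF-V600E cells and 420 ± 31.5 CPM in vector cells (SD, n = 3 each), a log2 difference of -0.48 (edgeR adjusted p = 0.000538). TPM1 was lower by less, at log2 -0.21 (adjusted p = 0.0272), and missed the threshold without a count filter (0.106) or without vector replicate 1 (0.1) or 2 (0.0924), or untreated replicate 1 (0.112) or 3 (0.0922). CNN1 held 0 counts in untreated cells and 1 in vector cells, and MYL9 and MYOCD held 0 in both, so they were not compared.

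After 20 hours of LGX818 most contractile genes were modestly higher and TPM1 was lower. Relative to untreated cells, 7 of the 10 genes were higher and 1 was lower, where 28.4% of all tested genes were higher and 25.2% lower. Of the 6 genes detected in every group, 5 were higher and 1 lower, with a median log2 difference of 0.48 against 0.06 over all tested genes. TAGLN, which encodes the actin-bundling protein transgelin, read 6.48, 5.39 and 6.33 CPM at 20 hours and 2.40, 1.91 and 1.59 CPM in untreated cells, 3.09-fold higher (adjusted p = 3.89e-09). ACTA2, smooth muscle alpha actin, read 38.2, 35.0 and 36.6 CPM at 20 hours against 16.2, 19.9 and 17.5 CPM in untreated cells, 2.05-fold higher (adjusted p = 5.15e-10). For both genes all 20-hour libraries lay above all untreated ones. ACTG2, smooth muscle gamma actin, held 50, 50 and 45 counts at 20 hours and 1, 10 and 7 counts in untreated cells. Its mean of 2.01 CPM at 20 hours was 9.14-fold above the untreated mean of 0.210 CPM on the fitted scale (adjusted p = 1.26e-05) and was its highest level in any of the 10 groups. CNN2 (log2 0.53, adjusted p = 6.48e-07), TPM2, beta tropomyosin (0.43, 0.00139), and CALD1 (0.37, 0.0016) were higher by less. MYL9, a myosin regulatory light chain, held 1, 4 and 5 counts at 20 hours and 0 in each untreated library, at least 3.79-fold higher against a floor of 3 counts over the group (adjusted p = 0.00125). TPM1, alpha tropomyosin, read 30.0, 30.5 and 28.2 CPM at 20 hours and 37.2, 41.2 and 38.2 CPM in untreated cells, a log2 difference of -0.40 ± 0.07 (SE, adjusted p = 1.41e-05). CNN1 and MYOCD held 0 counts in every library of both groups.

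After 7 days TPM1 and CALD1 had the largest differences from untreated cells among the 6 genes detected in every group. Relative to untreated cells, 8 of the 10 genes were higher in week 1 cells and 0 were lower, where 27.5% of all tested genes were higher and 26.7% lower. All 6 genes detected in every group were higher, with a median log2 difference of 2.58 against 0.00 over all tested genes. TPM1 read 756, 762 and 801 CPM in week 1 cells and 37.2, 41.2 and 38.2 CPM in untreated cells. Every week 1 library was far above every untreated one, a 19.9-fold difference (log2 4.31 ± 0.07, SE, adjusted p = 2.25e-28). CALD1 read 2563, 2328 and 2645 CPM in week 1 cells and 316, 292 and 298 CPM in untreated cells, 8.31-fold higher (adjusted p = 3.19e-21). TAGLN was 7.94-fold higher (adjusted p = 4.83e-16), at 15.6 ± 1.02 CPM in week 1 cells and 1.97 ± 0.408 CPM in untreated cells (SD, n = 3 each). CNN2 was 4.49-fold higher (adjusted p = 1.05e-20), at 255 ± 7.48 CPM in week 1 cells and 56.8 ± 4.32 CPM in untreated cells. ACTA2 and TPM2 were higher by less, 1.74-fold (adjusted p = 7.65e-08) and 1.27-fold (0.00833). CNN1, the calponin used as a marker of differentiated smooth muscle, held 16, 22 and 12 counts in week 1 cells and 0 in each untreated library, at least 15.1-fold higher (adjusted p = 1.04e-05). MYL9 held 31, 66 and 53 counts in week 1 cells and 0 in untreated cells, at least 45.2-fold higher (adjusted p = 4.52e-10). ACTG2, with 7, 11 and 7 counts in week 1 cells, did not pass the test against untreated cells (log2 0.34 ± 0.65, adjusted p = 0.689), and MYOCD stayed at 0 counts.

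**Figure D1:**
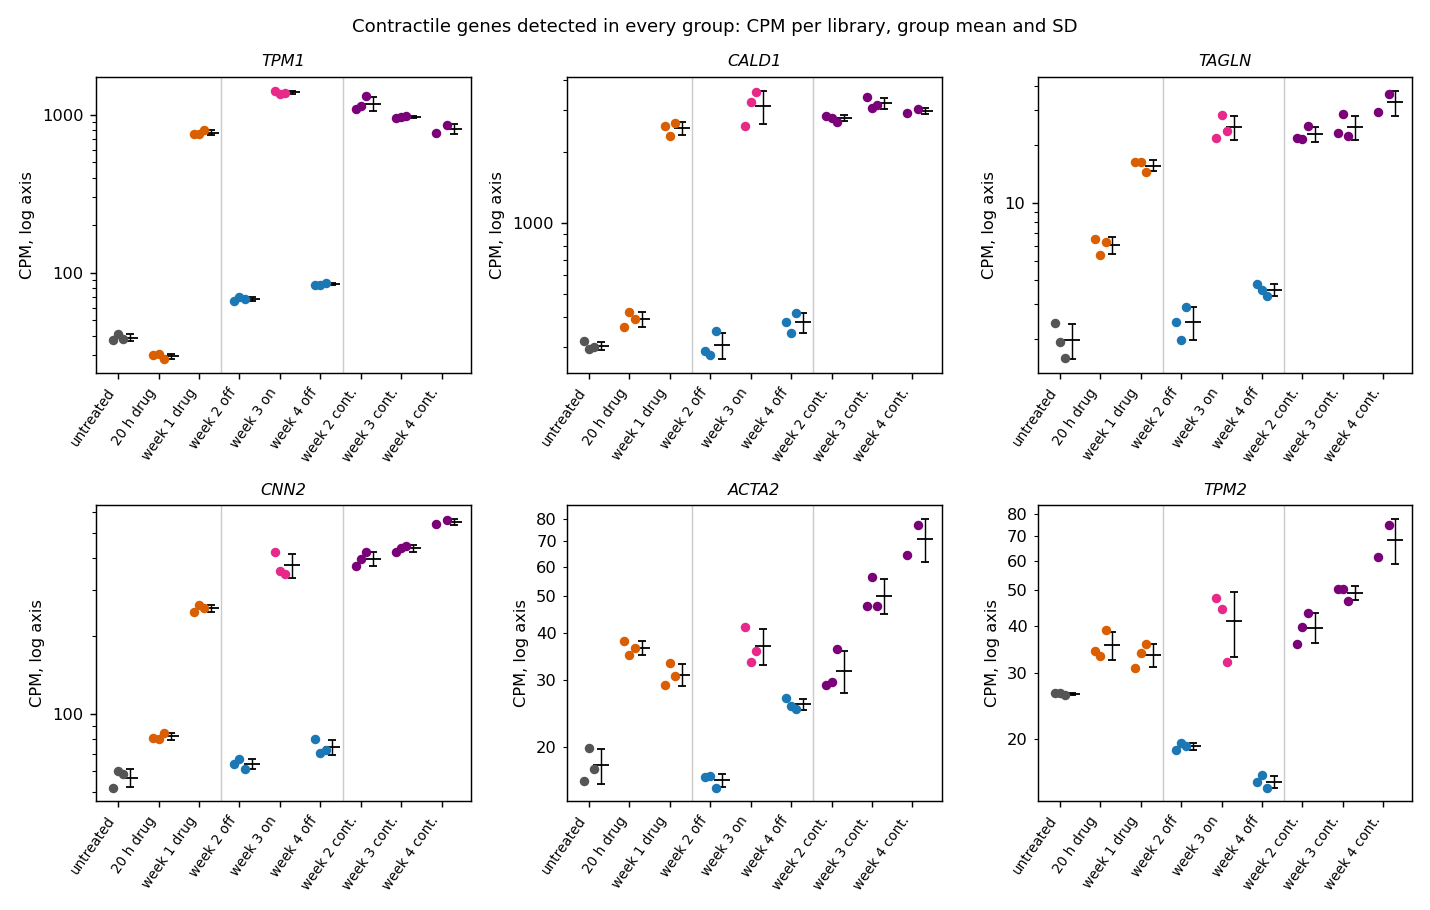
CPM of the 6 genes detected in every group, on log axes that differ between panels. Points are libraries, the bar beside them is the group mean and SD, and grey lines separate untreated, 20-hour and week 1 cells from the intermittent schedule and from continuous drug. TPM1 read 756 to 801 CPM in week 1 cells and 66.3 to 69.9 CPM in week 2 off cells.

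Set directly against 20 hours, week 1 cells had 6 of the 10 genes higher and 2 lower (4 and 1 of the 6 detected in every group), where 28.6% of all tested genes were higher and 29.1% lower. TPM1 was 26.2-fold higher in week 1 than at 20 hours (adjusted p = 7.99e-29), CALD1 6.42-fold (5.26e-20), CNN2 3.12-fold (6.37e-18) and TAGLN 2.57-fold (1.45e-09). MYL9, with 150 counts in week 1 cells and 10 at 20 hours, was 11.5-fold higher (adjusted p = 5.95e-08), and CNN1 was at least 13.3-fold higher. ACTG2 was 7.23-fold lower in week 1 than at 20 hours (adjusted p = 2.78e-05). ACTA2 was lower by log2 -0.24 (adjusted p = 0.042), which missed the threshold without a count filter (0.212), with RLE factors (0.0539), in DESeq2 (0.0712), and without 20-hour replicate 1 (0.205) or 3 (0.0781) or week 1 replicate 1 (0.272) or 3 (0.165). TPM2 did not pass (log2 -0.09, adjusted p = 0.526). ACTG2 thus stood higher at 20 hours than in week 1 cells, whereas TPM1 and CALD1 stood higher in week 1 cells.

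Under continuous drug the genes parted again between weeks 1 and 4. TPM1 averaged 773 ± 24.6, 1177 ± 119, 968 ± 15.1 and 815 ± 59.2 CPM at weeks 1, 2, 3 and 4 (SD, n = 3, and 2 at week 4, here and for the next 5 genes), with its highest continuous level at week 2. CALD1 averaged 2512 ± 165, 2767 ± 82.9, 3194 ± 180 and 2970 ± 93.8 CPM at weeks 1 to 4. These 2 genes stood high from week 1 on. CNN2, at 255 ± 7.48, 397 ± 23.9, 435 ± 12.9 and 550 ± 15.2 CPM, and TAGLN, at 15.6 ± 1.02, 22.6 ± 1.997, 24.6 ± 3.55 and 33.1 ± 4.90 CPM, had higher means at each later week. ACTA2 averaged 31.0 ± 2.10, 31.8 ± 3.998, 50.3 ± 5.35 and 71.0 ± 9.20 CPM, and TPM2 33.6 ± 2.43, 39.7 ± 3.70, 49.2 ± 2.09 and 68.2 ± 9.49 CPM. The week 4 means of ACTA2, TPM2, CNN2 and TAGLN were over 2 times their week 1 means, and those of TPM1 and CALD1 were not.

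**Figure D2:**
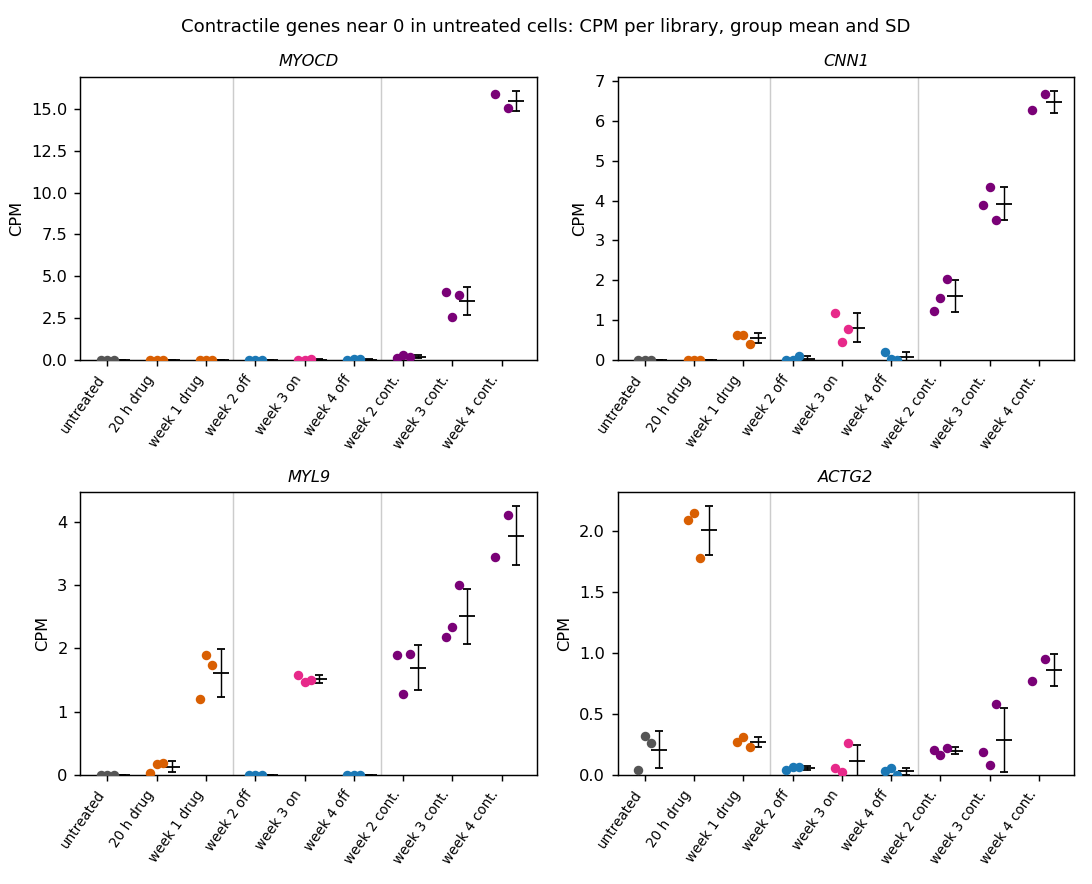
CPM of MYOCD, CNN1, MYL9 and ACTG2 on linear axes from 0, with the points and bars as for the other 6 genes. MYOCD stood at 15.9 and 15.1 CPM in the week 4 continuous libraries and at 0 in every untreated, 20-hour, week 1 and week 2 off library.

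MYOCD, the muscle coactivator of SRF, appeared late and under continuous drug. It held 0 counts in each vector, untreated, 20-hour and week 1 library. It then held 3, 9 and 4 counts at week 2, 105, 91 and 134 counts at week 3, and 517 and 458 counts at week 4 of continuous drug. Each of these weeks lay wholly above the one before. Week 2 was at least 6.02-fold above week 1 (adjusted p = 0.00153), week 3 was 17.4-fold above week 2 (log2 4.12 ± 0.36, SE, adjusted p = 3.75e-08) and week 4 was 4.42-fold above week 3 (log2 2.14 ± 0.25, adjusted p = 1.64e-05). At a mean of 15.5 CPM, week 4 continuous cells were at least 470-fold above week 1 cells (adjusted p = 9.75e-13).

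CNN1 held 16, 22 and 12 counts at week 1, 30, 46 and 54 at week 2, 100, 154 and 121 at week 3, and 204 and 203 at week 4 of continuous drug, with no overlap between neighbouring weeks. It was 11.7-fold higher at week 4 than at week 1 (adjusted p = 1.45e-08), 2.91-fold at week 2 over week 1 (0.00302) and 2.44-fold at week 3 over week 2 (0.00393). The step at week 4 over week 3 did not pass (log2 0.72 ± 0.32, adjusted p = 0.187), although it passed when the 2 groups were fitted alone (0.0115). MYL9 was 2.32-fold higher at week 4 than at week 1 (adjusted p = 0.000809), at 3.78 CPM in week 4 and 1.61 CPM in week 1 cells.

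Week by week, 5 of the 10 genes (TAGLN, CNN1, CNN2, TPM1 and MYOCD) were higher at week 2 than at week 1 and 0 were lower. Of the 6 detected in every group 3 were higher and 0 lower, and of the 20494 tested genes 3283 (16.0%) and 2772. 4 were higher at week 3 than at week 2 (ACTA2, CNN1, TPM2 and MYOCD) and 1 was lower (TPM1), 2 and 1 of them among the 6 detected in every group, where 10.5% of all tested genes were higher and 10.8% lower. ACTA2 was then 1.58-fold higher (adjusted p = 6.03e-06). TPM1 was lower by log2 -0.28 (adjusted p = 0.00146, but 0.0697 when the 2 groups were fitted alone). The TPM2 call (adjusted p = 0.038) was lost without week 2 continuous replicate 1 (0.169) or 2 (0.0859) or week 3 continuous replicate 1 (0.0972), 2 (0.112) or 3 (0.0532).

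At week 4 over week 3, 4 genes were higher (ACTA2, CNN2, TPM2 and MYOCD) and 1 was lower (TPM1), 3 and 1 of them among the 6 detected in every group, where 3.44% of all tested genes were higher and 3.49% lower. With 2 libraries at week 4, each of these calls other than that of MYOCD rested on single libraries. ACTA2 (1.41-fold, adjusted p = 0.00309) missed the threshold without week 4 continuous replicate 2 (0.168). CNN2 (1.26-fold, adjusted p = 0.00811) missed it without week 4 replicate 1 (0.0598) or 2 (0.120). TPM2 (1.39-fold, adjusted p = 0.0103) missed it without week 4 replicate 2 (0.298) or week 3 continuous replicate 3 (0.055). TPM1 (log2 -0.25, adjusted p = 0.0328) missed it without a count filter (0.111), without week 4 replicate 1 (0.407) or 2 (0.0716), and without week 3 continuous replicate 2 (0.0522) or 3 (0.0728). Over these libraries left out, the number of genes called at this step ran down to 1.

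Over the whole span, 8 of the 10 genes were higher in week 4 continuous than in week 1 cells and 0 were lower (4 and 0 of the 6 detected in every group). Of the 20494 tested genes, 4334 (21.1%) were higher and 4076 lower. ACTA2 was 2.29-fold higher (adjusted p = 1.28e-10), CNN2 2.15-fold (1.45e-12), TAGLN 2.12-fold (1.88e-07) and TPM2 2.03-fold (1.94e-08). ACTG2, with 25 and 29 counts at week 4 and 7, 11 and 7 at week 1, was 3.11-fold higher (adjusted p = 0.026). That call was lost in DESeq2 (0.0512) and without week 1 replicate 1 (0.061) or 3 (0.0812) or week 4 continuous replicate 1 (0.0613) or 2 (0.141). TPM1 (log2 0.08 ± 0.07, adjusted p = 0.431) and CALD1 (0.24 ± 0.11, 0.0707) did not pass, although CALD1 passed when the 2 groups were fitted alone (0.000125), without a count filter (0.0374) and without the 4 libraries that stood apart (0.00689). Against untreated cells, all 10 genes were higher in week 4 continuous cells, with all of the 6 detected in every group. Over all tested genes 29.3% were higher. For the 6 genes detected in every group the log2 differences there ran from 1.37 for TPM2 to 4.39 for TPM1.

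Withdrawal of the drug for 7 days went with lower levels of most of the genes. Relative to week 1 cells, 0 of the 10 genes were higher and 9 were lower in week 2 off cells, where 27.7% of all tested genes were higher and 26.8% lower. All 6 genes detected in every group were lower, with a median log2 difference of -2.33 against -0.01 over all tested genes. TPM1 read 66.3, 69.9 and 67.8 CPM in week 2 off cells and 756, 762 and 801 CPM in week 1 cells, 11.4-fold lower off drug (adjusted p = 3.44e-26). CALD1 read 287, 276 and 349 CPM in week 2 off cells and 2563, 2328 and 2645 CPM in week 1 cells, 8.27-fold lower (adjusted p = 4.8e-21). The groups did not overlap for either gene. TAGLN was 6.37-fold lower (adjusted p = 4.64e-15), CNN2 3.98-fold (9.95e-20), ACTA2 1.91-fold (5.02e-09) and TPM2 1.76-fold (2.89e-07). MYL9 held 0 counts in each week 2 off library and 150 in all in week 1 cells, at least 44.3-fold lower (adjusted p = 6.15e-10). CNN1 held 3 counts in week 2 off cells, all in replicate 3, and 50 in week 1 cells, a ratio of 14.8 (95% exact counting interval 4.77 to 73.9). Its fitted log2 difference was -3.74, or -7.01 without that library, which is one of the 4 that stood apart and whose removal leaves 0 counts off drug. ACTG2 held 5 counts in week 2 off cells and 25 in week 1 cells (adjusted p = 0.0319), a call lost without week 1 replicate 2 (0.0821), without week 2 off replicate 1 (0.086), 2 (0.0589) or 3 (0.0616), and without the 4 libraries that stood apart (0.0602).

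Between week 2 off and never-treated cells, 7 of the 10 genes held enough counts to be compared. Relative to never-treated BRAF-V600E cells, 2 of the 10 genes were higher and 1 was lower in week 2 off cells, all among the 6 detected in every group, where 31.2% of all tested genes were higher and 28.8% lower. TPM1 remained 1.75-fold higher, at 68.0 ± 1.78 CPM in week 2 off cells and 38.9 ± 2.05 CPM in untreated cells (SD, n = 3 each, edgeR adjusted p = 9.86e-12). TPM2 fell to 18.7, 19.5 and 19.1 CPM in week 2 off cells, against 26.5, 26.6 and 26.2 CPM in untreated cells (log2 -0.47 ± 0.11, SE, adjusted p = 0.000645). CNN2 was higher by log2 0.17 (adjusted p = 0.0492). It missed the threshold without untreated replicate 1 (0.202) or week 2 off replicate 1 (0.0885), 2 (0.404) or 3 (0.111), without a count filter (0.104) and with the 2 groups fitted alone (0.0713). CALD1 (log2 0.01 ± 0.10, adjusted p = 0.952), ACTA2 (-0.14 ± 0.11, 0.277) and TAGLN (0.32 ± 0.20, 0.172) did not pass. CNN1, MYL9 and MYOCD held too few counts in both groups to be compared. Never-treated cells carry no day label, so the part of time in culture cannot be told apart. Against continuous drug in the same week, week 2 off cells had 9 of the 10 genes lower, with all of the 6 detected in every group, where 27.9% of all tested genes were lower. MYOCD held 0 counts in week 2 off cells and 16 in week 2 continuous cells, at least 5.33-fold lower.

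**Figure D3:**
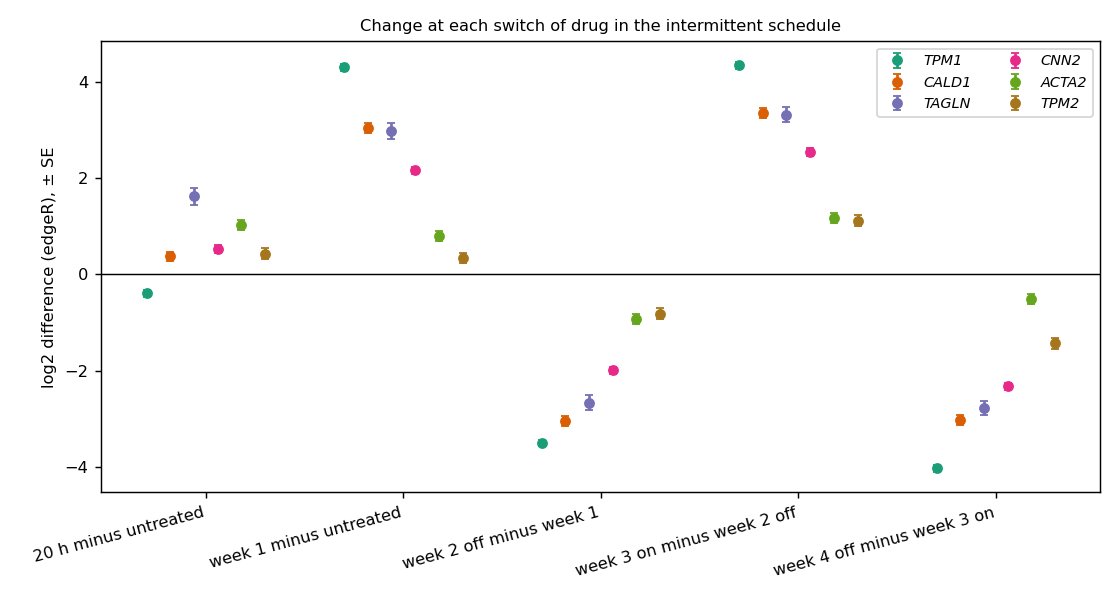
Log2 differences with their SE (edgeR) of the 6 genes detected in every group at 20 hours and at each switch of drug in the intermittent schedule. TPM1 stood at 4.31 at the first week of drug, -3.51 at the first withdrawal, 4.35 at the second week of drug and -4.03 at the second withdrawal.

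Most of the genes were higher once more after drug was given again for 7 days. Relative to week 2 off cells, 8 of the 10 genes were higher and 0 were lower in week 3 on cells, where 27.8% of all tested genes were higher and 28.5% lower. All 6 genes detected in every group were higher, with a median log2 difference of 2.93 against 0.02 over all tested genes. TPM1 read 1425, 1363 and 1372 CPM in week 3 on cells and 66.3, 69.9 and 67.8 CPM in week 2 off cells, 20.4-fold higher (adjusted p = 1.37e-27). That mean of 1387 CPM was its highest in any group. CALD1 was 10.2-fold higher (adjusted p = 8.59e-22), TAGLN 10.03-fold (1.77e-17) and CNN2 5.83-fold (4.97e-22). ACTA2 was 2.27-fold higher (adjusted p = 2.81e-11) and TPM2 2.17-fold (5.41e-10). MYL9 held 51, 48 and 46 counts in week 3 on cells and 0 in week 2 off cells, at least 40.8-fold higher. CNN1 held 38, 15 and 24 counts in week 3 on cells and 3 in all in week 2 off cells, a ratio of 21.6 (95% exact counting interval 7.13 to 107). The fitted log2 difference was 4.29, or 7.55 without week 2 off replicate 3, which held all 3. ACTG2 did not pass (log2 0.86 ± 0.93, adjusted p = 0.451), and MYOCD held 0, 0 and 2 counts in week 3 on cells.

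The second response to drug was compared with the first in 1 interaction term. Past the threshold, 3 of the 10 genes responded more at rechallenge and 0 less, all 3 among the 6 detected in every group. Of the 20494 tested genes, 4782 (23.3%) had a positive and 5116 a negative term. CNN1, MYL9 and MYOCD held too few counts in some of these groups to be compared. The count of 3 thus came from 7 genes and was not tested against the background. TPM2 rose by log2 1.12 at rechallenge and 0.35 in the first week, a difference of 0.77 ± 0.16 (SE, adjusted p = 0.000118). CNN2 rose by 2.54 at rechallenge and 2.17 in the first week (difference 0.38 ± 0.11, adjusted p = 0.00371). ACTA2 had a difference of 0.39 ± 0.14 (adjusted p = 0.0273), which missed the threshold without untreated replicate 2 (0.116), week 1 replicate 3 (0.0535) or week 3 on replicate 1 (0.101), without the 4 libraries that stood apart (0.106), without a count filter (0.0529) and in DESeq2 (0.0527). TPM1 had a difference of 0.04 ± 0.09 (adjusted p = 0.791). CALD1 missed the threshold (0.30 ± 0.14, adjusted p = 0.0696) and passed it without week 1 replicate 1 (0.0459), week 2 off replicate 3 (0.00601) or week 3 on replicate 1 (0.00633), without the 4 libraries that stood apart (6.96e-05) and without a count filter (0.0418). In absolute level, 3392 (16.6%) of the 20494 tested genes were higher in week 3 on than in week 1 cells and 2979 were lower. Of the 10 contractile genes 5 were higher and 0 lower, all 5 among the 6 detected in every group. TPM1 (1.79-fold, adjusted p = 1.24e-11), TAGLN (1.57-fold, 0.000178) and CNN2 (1.46-fold, 5.97e-07) were among them. The other 2, TPM2 (adjusted p = 0.0305) and CALD1 (0.0135), overlapped between the groups. TPM2 missed the threshold without week 1 replicate 1 (0.149) or 2 (0.0667) or week 3 on replicate 1 (0.216) or 2 (0.149), without the 4 libraries that stood apart (0.162) and with the 2 groups fitted alone (0.101). CALD1 missed it without week 1 replicate 2 (0.0837) or week 3 on replicate 2 (0.0643) or 3 (0.145).

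At 21 days, cells on the second drug week and cells on continuous drug differed gene by gene. Relative to week 3 continuous cells, 1 of the 10 genes was higher and 5 were lower in week 3 on cells (1 and 2 of the 6 detected in every group), where 14.0% of all tested genes were higher and 14.3% lower. MYOCD differed most, with 0, 0 and 2 counts in week 3 on cells (both in replicate 3) and 105, 91 and 134 counts in week 3 continuous cells, a ratio of 165 (95% exact counting interval 45.3 to 1370, adjusted p = 7.25e-10). The fitted log2 difference was -7.12, -9.65 without week 3 on replicate 3 and -6.49 without the 4 libraries that stood apart. CNN1 read 1.18, 0.457 and 0.788 CPM in week 3 on cells and 3.89, 4.34 and 3.52 CPM in week 3 continuous cells, 4.84-fold lower (adjusted p = 7.34e-06). ACTA2 read 41.4, 33.5 and 35.9 CPM in week 3 on cells and 47.2, 56.5 and 47.3 CPM in week 3 continuous cells, 1.36-fold lower (adjusted p = 0.000656). TPM1 went the other way, at 1425, 1363 and 1372 CPM in week 3 on cells and 952, 969 and 982 CPM in week 3 continuous cells, 1.43-fold higher (adjusted p = 1.68e-07). These 4 genes did not overlap between the groups.

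MYL9 (log2 -0.73, adjusted p = 0.0328) and CNN2 (-0.22, 0.0239) were lower in week 3 on than in week 3 continuous cells by less certain margins. MYL9 missed the threshold without week 3 continuous replicate 2 (0.0554) or 3 (0.166), without week 3 on replicate 1 (0.0671), 2 (0.0807) or 3 (0.0748), and without a count filter (0.0555). CNN2 missed it without week 3 continuous replicate 2 (0.075) or 3 (0.104), without week 3 on replicate 2 (0.109) or 3 (0.162), without a count filter (0.0579) and with the 2 groups fitted alone (0.0999). TAGLN (log2 -0.0017 ± 0.13, adjusted p = 1) and CALD1 (-0.04 ± 0.10, 0.825) did not pass, and the libraries of the groups overlapped for both genes. TPM2 missed the threshold (log2 -0.25, adjusted p = 0.0829) and passed it without week 3 on replicate 1 (0.0239) or without the 4 libraries that stood apart (0.022).

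Most of the genes were lower again after the second withdrawal. Relative to week 3 on cells, 8 of the 10 genes were lower in week 4 off cells, with all of the 6 detected in every group, where 22.3% of all tested genes were lower. TPM1 read 84.2, 83.8 and 86.0 CPM in week 4 off cells and 1425, 1363 and 1372 CPM in week 3 on cells, 16.4-fold lower (adjusted p = 7.44e-27). CALD1 was 8.18-fold lower (adjusted p = 9.75e-21), TAGLN 6.89-fold (3.78e-16), CNN2 5.02-fold (4.26e-21), TPM2 2.70-fold (4.02e-12) and ACTA2 1.43-fold (7.68e-05). MYL9 held 0 counts in each week 4 off library, at least 46.3-fold lower. CNN1 held 6, 1 and 0 counts in week 4 off cells and 38, 15 and 24 counts in week 3 on cells, a log2 difference of -3.33 (adjusted p = 3.75e-05), or -5.30 without week 4 off replicate 1.

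Compared with the first withdrawal, TPM1 fell further at the second, by log2 -4.03 against -3.51 (difference -0.53 ± 0.09, SE, adjusted p = 8.48e-05). TPM2 did too, by -1.43 against -0.81 (difference -0.62 ± 0.16, adjusted p = 0.00533). CNN2 had a difference of -0.33 ± 0.11 (adjusted p = 0.0247) and ACTA2, which fell less at the second withdrawal, of 0.42 ± 0.14 (0.0397). In all, 1 of the 10 genes had a positive and 3 a negative term, all among the 6 detected in every group, where 7.60% and 9.50% of all tested genes did. ACTG2, CNN1, MYL9 and MYOCD held too few counts in some of these groups to be compared. The CNN2 term missed the threshold without week 1 replicate 1 (0.0999) or 3 (0.0564), week 2 off replicate 2 (0.106), week 3 on replicate 1 (0.115) or week 4 off replicate 2 (0.0875) or 3 (0.0741), without a count filter (0.101) and with the 4 groups fitted alone (0.0569). The ACTA2 term missed it without week 1 replicate 2 (0.113), week 2 off replicate 1 (0.0601) or 3 (0.0642), week 3 on replicate 2 (0.0766) or 3 (0.0517), or week 4 off replicate 1 (0.062).

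The drug-free weeks were not equal to each other or to never-treated cells. Relative to week 2 off cells, 5 of the 10 genes were higher and 1 was lower in week 4 off cells, which were the 6 detected in every group, where 14.6% of all tested genes were higher and 14.4% lower. ACTA2 read 26.9, 25.7 and 25.2 CPM in week 4 off cells and 16.6, 16.7 and 15.6 CPM in week 2 off cells, 1.59-fold higher (adjusted p = 7.3e-06). TPM1 was 1.25-fold higher (adjusted p = 0.000428). The other 4 calls depended on single libraries. TAGLN (log2 0.54, adjusted p = 0.0215) missed the threshold without week 2 off replicate 1 (0.0555) or 2 (0.121) or week 4 off replicate 1 (0.0683). CALD1 (0.32, 0.0109) missed it without week 2 off replicate 1 (0.0613) or 2 (0.0536) or week 4 off replicate 3 (0.0618). CNN2 (0.22, 0.0302) missed it without week 2 off replicate 1 (0.0706) or 3 (0.0812) or week 4 off replicate 1 (0.123), without a count filter (0.060) and with the 2 groups fitted alone (0.0568). TPM2 (-0.31, 0.039) missed it without any 1 of the 6 libraries (0.0625 to 0.134).

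Relative to never-treated cells, 6 of the 10 genes were higher and 2 were lower in week 4 off cells (5 and 1 of the 6 detected in every group), where 28.1% of all tested genes were higher and 25.7% lower. TPM1 was 2.18-fold higher (adjusted p = 6.26e-15), TAGLN 1.81-fold (0.00023), ACTA2 1.45-fold (5.33e-05), CNN2 1.31-fold (6.28e-05) and CALD1 1.26-fold (0.00446). TPM2 was 1.72-fold lower (adjusted p = 7.7e-07), at 15.3, 15.96 and 14.8 CPM in week 4 off cells and 26.5, 26.6 and 26.2 CPM in untreated cells. CNN1 was at least 2.10-fold higher (7 counts against 0, adjusted p = 0.0434), with 6 of its 7 counts in week 4 off replicate 1. It missed the threshold without that library (0.345) and without untreated replicate 1 (0.0804), 2 (0.0949) or 3 (0.0844). ACTG2 held 3 counts in week 4 off cells and 18 in untreated cells, a ratio of 6.68 (95% exact counting interval 1.95 to 35.4, adjusted p = 0.02). The fitted log2 difference was -2.57, or -3.36 without week 4 off replicate 2. It missed the threshold without untreated replicate 2 (0.113) or 3 (0.0574) or week 4 off replicate 3 (0.0854).

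Against continuous drug at 28 days, all 10 genes were lower in week 4 off cells, with all of the 6 detected in every group. Over all tested genes 25.1% were lower. MYOCD held 0, 1 and 1 counts in week 4 off cells and 517 and 458 in week 4 continuous cells, a ratio of 710 (95% exact counting interval 196 to 5870, adjusted p = 6.29e-13). MYL9 was at least 115-fold lower. TPM1 was 9.62-fold lower (adjusted p = 5e-25), TAGLN 9.27-fold (4.23e-17), CALD1 7.81-fold (4.94e-20) and CNN2 7.39-fold (1.82e-22). TPM2 was 4.44-fold (adjusted p = 1.4e-15) and ACTA2 2.74-fold lower (9.08e-13).

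In order of level, week 4 continuous cells were highest for ACTA2, TAGLN, CNN1, CNN2, MYL9, TPM2 and MYOCD, without overlap with the next group. TPM1 was highest in week 3 on, ACTG2 at 20 hours and CALD1 in week 3 continuous cells, whose CALD1 values overlapped those of week 3 on cells. For ACTA2, the libraries of week 2 off, untreated and vector cells overlapped at the low end, between 15.6 and 19.9 CPM. Over the 10 group means of log2 CPM, the gene most like TPM1 was MYH9, a non-muscle myosin heavy chain (Pearson r = 0.991), and that most like CALD1 was FERMT2, the integrin adaptor kindlin-2 (0.993). For TAGLN it was GAS6 (0.987), for CNN2 LYPD6B (0.986), with vinculin (VCL) also among its nearest (0.983), for ACTA2 CLUAP1 (0.977) and for TPM2 PARVG (0.977). ACTA2 and TPM1 had an r of 0.665 with each other, and TPM1 and CALD1 one of 0.974. These coefficients describe 10 means from shared libraries.

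Other genes of contractile and adhesion structures were higher in some cases and lower in others. Of 28 tested genes on a list of other contractile genes, 7 were higher and 11 lower at 20 hours than in untreated cells, and 20 were higher and 4 lower in week 1 than in untreated cells. Over all tested genes 28.4% were higher and 25.2% lower at 20 hours, close to the list's share that was higher, and 27.5% and 26.7% in week 1. The list's median log2 differences were 0.01 at 20 hours and 0.92 in week 1, against 0.06 and 0.00 over all tested genes. In week 2 off relative to week 1 cells, 6 were higher and 14 lower (median -0.58), and in week 3 on relative to week 2 off cells 15 were higher and 4 lower (median 0.55). Over all tested genes the shares were 27.7% higher and 26.8% lower in the first of these comparisons and 27.8% and 28.5% in the second. The actin crosslinker FLNA averaged 4078 CPM in week 1 and 805 CPM in untreated cells, 5.07-fold higher (adjusted p = 9.39e-19), and MYH9 was 4.81-fold higher (5.32e-20). MYH10, another non-muscle myosin, was 3.78-fold lower in week 1 than in untreated cells (adjusted p = 1.21e-12). The LIM proteins CSRP1 and ZYX were high after withdrawal. ZYX averaged 2056 ± 179 CPM in week 2 off and 453 ± 30.5 CPM in week 1 cells (SD, n = 3 each, edgeR adjusted p = 3.26e-19). CSRP1 averaged 1276 CPM in week 2 off and 348 CPM in week 1 cells (edgeR adjusted p = 7.31e-19). In never-treated cells, also without drug, ZYX averaged 556.5 CPM and CSRP1 753.4 CPM. ZYX was 3.39-fold and CSRP1 3.51-fold lower in week 3 on than in week 2 off cells. At 20 hours PPP1R12B, a myosin phosphatase subunit, was 6.79-fold higher than in untreated cells (adjusted p = 7.49e-15), while ACTN1 (alpha-actinin) was 5.32-fold and ZYX 5.10-fold lower. MYLK, the kinase that phosphorylates the myosin light chain, averaged 33.3 CPM in week 1 and 13.3 CPM in untreated cells (adjusted p = 3.83e-12), and was not lower in week 2 off than in week 1 cells past the threshold (log2 -0.07 ± 0.10, adjusted p = 0.604). MYH11, the smooth muscle myosin heavy chain, averaged 0.188 to 0.467 CPM in the 10 groups, and passed in neither week 1 (adjusted p = 0.199) nor week 4 continuous cells (0.941) relative to untreated cells.

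**Figure D4:**
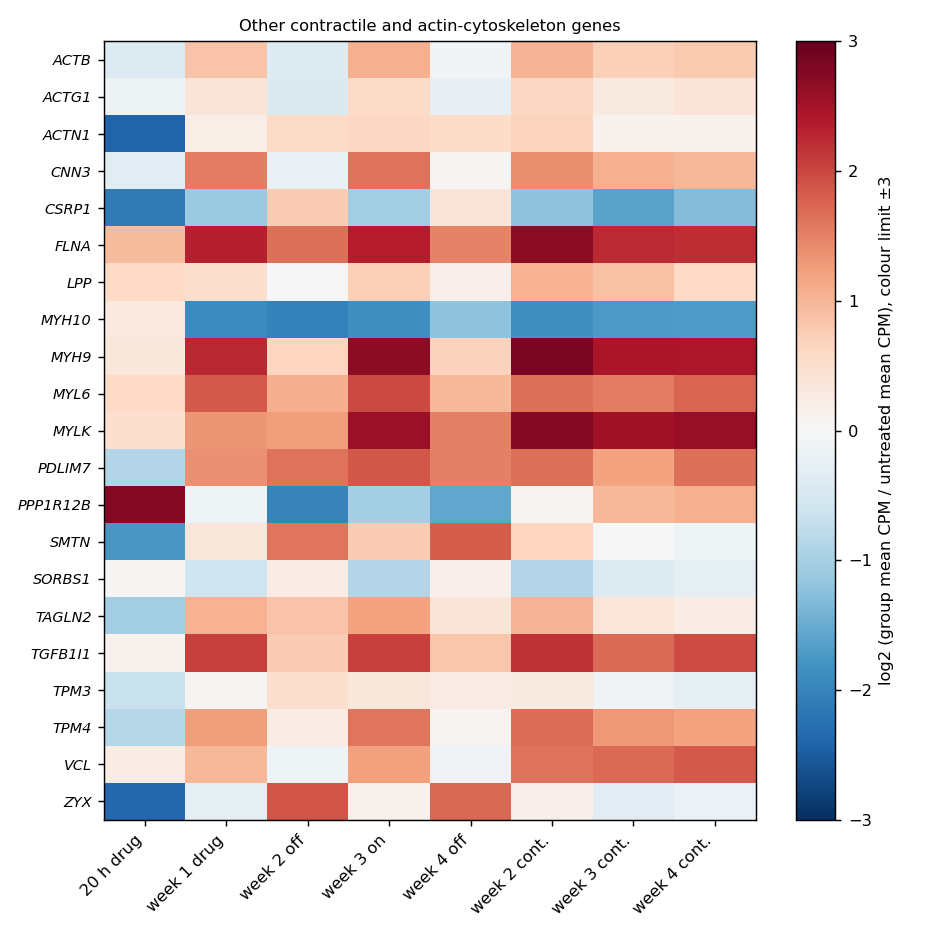
Log2 ratio of each group's mean CPM to the untreated mean for 21 other contractile and actin-cytoskeleton genes with a mean of at least 5 CPM. MYH9 and FLNA are above untreated in each column, ZYX and CSRP1 are highest in the 2 off-drug columns, and PPP1R12B is highest at 20 hours.

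Of 13 SRF-related factors, 4 were higher and 6 lower at 20 hours and 7 were higher and 1 lower in week 1, each relative to untreated cells. Over all tested genes 28.4% were higher and 25.2% lower at 20 hours, so the list's higher count was near the background there, and 27.5% and 26.7% in week 1. The list's median log2 differences were -0.31 at 20 hours and 0.34 in week 1. SRF averaged 33.2 ± 0.722 CPM at 20 hours and 48.8 ± 4.16 CPM in untreated cells (SD, n = 3 each, edgeR adjusted p = 1.14e-08). The part of SRF in the contractile gene results was not tested. In week 1 cells SRF averaged 61.6 CPM, against 48.8 CPM in untreated cells (adjusted p = 3.42e-05). MKL1, which encodes MRTF-A, averaged 54.9 CPM in week 1 and 28.5 CPM in untreated cells (adjusted p = 8.17e-11), and 29.01 CPM in week 2 off cells. KLF4, a factor known for repressing contractile genes in smooth muscle, averaged 33.0 CPM in week 1 and 3.28 CPM in untreated cells (adjusted p = 4.33e-20).

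Markers of other cell types were summed beside these results. Fibroblast markers (10 genes) summed to 105 to 109 CPM in untreated, 118 to 129 at 20 hours, 314 to 321 in week 1, 1150 to 1217 in week 2, 1767 to 1855 in week 3 and 2335 to 2593 CPM in week 4 continuous cells. They summed to 45.6 to 48.0 CPM in week 2 off, 707 to 835 CPM in week 3 on and 38.7 to 39.7 CPM in week 4 off cells. COL1A1 made up most of the sum in cells on drug for 7 days or more and little of it in the others, at 2179 CPM in week 4 continuous and 0.778 CPM in untreated cells, while THY1 was at 0 in week 1 cells, and 9 of the 10 genes were above 1 CPM in week 4 continuous cells against 4 in untreated cells. Mural-cell markers (10 genes, with MYH11 and DES) summed to 2750 to 2841 CPM in untreated cells. Of the 10, 5 averaged above 1 CPM there, while DES held 0 counts and MYH11 stood under 1 CPM. Other genes of the list therefore made up that sum. At 20 hours the 10 summed to 495.5 to 529.8 CPM and in week 1 to 1108 to 1159 CPM. In weeks 2, 3 and 4 of continuous drug they summed to 801.9 to 874.6, 729.5 to 786.3 and 751.6 to 799.8 CPM. Sums were 3126 to 3319 CPM in week 2 off and 3098 to 3321 CPM in week 4 off cells. Week 3 on cells summed to 884.7 to 1046 CPM. By gene, 3 of the 10 were higher and 4 lower in week 1 than in untreated cells. Set against 20 hours, 5 were higher and 0 lower in week 1. Of 20 striated muscle markers, 10 were tested, and 2 were higher and 1 lower in week 1 than in untreated cells, under the 27.5% and 26.7% of all tested genes. MYOG was at 0 in every group and MYOD1 at 0 in all but week 3 continuous cells. Epithelial markers summed to 45.3 to 149 CPM over all groups, endothelial ones to 7.17 to 125 CPM and blood ones to at most 11.7 CPM. Endothelial and blood sums were highest in week 2 off and week 4 off cells. The 10 melanocyte markers summed to 2463 to 2583 CPM in untreated cells, 8204 to 8362 CPM at 20 hours and 840 to 908 CPM in week 1 cells. In weeks 2, 3 and 4 of continuous drug they summed to 327 to 373, 430 to 494 and 427 to 446 CPM. Their sums were 597 to 625 CPM in week 2 off, 416 to 542 in week 3 on and 972 to 1038 in week 4 off cells. Relative to untreated cells, 8 were higher and 0 lower at 20 hours, and 2 were higher and 6 lower in week 1. The part of these markers in the contractile gene results was not tested.

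Several of the genes overlap others on the opposite strand, and no source used here gives the strand setting of the counting. ACTA2 shares 380 exon bases with FAS and 516 with ACTA2-AS1, and TAGLN shares 446 with PCSK7, whose total counts over all libraries were 31654 against 11377 for TAGLN. TPM1 shares 2070 exon bases with TPM1-AS. At most 1.13% of the 50-base stretches of any of the 10 genes occurred in another gene's transcripts.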

How the data were processed

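The deposited table holds raw counts per gene, whole numbers, for 60675 Ensembl genes in 29 libraries of polyadenylated RNA. Per the submitters' processing notes, Trimmomatic 0.32, HISAT2 2.0.3, SAMtools 0.1.18, HTSeq 0.6.1 and GRCh38 were used. The annotation release and the strand setting are not given in the sources used here. The week 3 intermittent columns are named off drug in the table and on drug in the sample labels, and were matched by week, schedule and replicate.

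Genes were tested in edgeR 4.0.16 (R 4.3.3) with TMM factors, filterByExpr and 1 quasi-likelihood fit of all 29 libraries. P-values were adjusted by Benjamini-Hochberg over the 20494 tested genes in each comparison, with a threshold of 0.05. SEs of log2 differences follow from each estimate and its F statistic. CPM is counts over library size times TMM factor, scaled to 1000000. Folds against groups at 0 counts are lower bounds from a floor of 3 counts over the group. Counting intervals and floors cover counting error only. Exon lengths and positions came from GENCODE 29, which matched 57055 identifiers, and promoters from RefSeq GRCh38.p14.

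The 10 genes and all lists were chosen with earlier results of these data known. In each comparison all 10 genes were tested and entered the counts, but not each of them is described. The result of 1 further gene list is not reported here. From the other contractile genes and SRF-related factors, the rule named, in 4 comparisons, up to 3 called genes with the greatest rise and 3 with the greatest fall (mean 5 CPM or more), some of which are described, and also MYH11, MYLK, SRF and the MRTF genes. Of the MRTF genes only MKL1 is described. The most similar genes are ranked by Pearson r over group means of log2 values. The fitting was tested on simulated data. Other settings tried were each library left out, a replicate block, the compared groups alone, no count filter, RLE factors and DESeq2 1.42.0. Leaving out the 4 libraries that stood apart was chosen after seeing the data. The steps at 21 over 14 days and 28 over 21 days of continuous drug were also added then.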

Additional observations from a re-analysis of the deposited data

Results flagged for a closer look

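At 7 contractile gene results, the response to a second switch of drug differed from the response to the first by an interaction term in edgeR. At rechallenge (week 3 on minus week 2 off, less week 1 minus untreated), the log2 difference was 0.77 for TPM2 (adjusted p = 0.000118), 0.39 for ACTA2 (0.0273) and 0.38 for CNN2 (0.00371). At withdrawal (week 4 off minus week 3 on, less week 2 off minus week 1), it was -0.62 for TPM2 (adjusted p = 0.00533), -0.53 for TPM1 (8.48e-05), -0.33 for CNN2 (0.0247) and 0.42 for ACTA2 (0.0397). Over all tested genes, 23.3% had a positive rechallenge term and 5116 of 20494 a negative one. At withdrawal 7.60% were positive and 9.50% negative. The libraries whose removal ended a call are named with the results above. The second switches came later in the time course than the first, and the part of time in culture cannot be told apart from that of the repeat.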

How the results depend on the processing

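Over all comparisons and alternatives, 2237 values of the 10 genes were recomputed: 2052 kept their direction and their side of the threshold, 111 lost a call, 27 gained one and 47 changed sign. Of 370 recomputed values of other genes, 366 kept both and 4 changed sign, all of MYH11 in week 4 continuous minus untreated cells, which had not passed. The number of genes called moved by over 1.5 times in 2 comparisons when a library was left out. Between week 4 off and week 2 off cells it ran between 2 and 5, against 6 with all libraries, and was 2 without week 2 off replicate 1, 3 without week 2 off replicate 2 and 3 without week 4 off replicate 1. Between weeks 4 and 3 of continuous drug it ran between 1 and 5, against 5, and was 3 without week 4 replicate 1 and 1 without replicate 2.

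All the sign changes were of differences that had not passed the threshold. With libraries left out in turn, untreated minus vector ran between -0.038 and 0.11 (log2) for ACTA2, -0.43 and 0.69 for ACTG2, and -0.070 and 0.092 for TPM2. Week 1 minus untreated ran between -0.095 and 0.82 for ACTG2, and week 1 minus 20 hours between -0.13 and 0.012 for TPM2. Week 2 continuous minus week 1 ran between -0.091 and 0.086 for ACTA2 and -0.13 and 0.21 for MYL9, and week 4 continuous minus week 1 between -0.0054 and 0.15 for TPM1. Week 3 minus week 2 of continuous drug ran between -0.58 and 1.00 for ACTG2 and -0.0135 and 0.19 for TAGLN. Week 2 off minus untreated ran between -0.15 and 0.053 for CALD1, and week 3 on minus week 2 off between -0.39 and 1.30 for ACTG2. Week 3 on minus week 3 continuous ran between -0.13 and 0.10 for CALD1 and -0.11 and 0.14 for TAGLN, week 3 on minus week 1 between -0.28 and 0.039 for MYL9, and week 4 off minus week 2 off between -1.01 and 4.22 for CNN1. The rechallenge term ran between -0.74 and 0.95 for ACTG2 and -0.022 and 0.10 for TPM1, and the withdrawal term between -0.090 and 0.15 for CALD1 and -0.22 and 0.073 for TAGLN. Without the 4 libraries that stood apart, week 2 continuous minus week 1 was -0.075 for ACTA2 and -0.044 for MYL9, week 2 off minus untreated was -0.10 for CALD1, week 3 on minus week 3 continuous was 0.13 for CALD1 and 0.039 for TAGLN, and the CALD1 withdrawal term was -0.0003. DESeq2 and RLE factors gave -0.0098 and -0.0097 for that term and -0.0065 each for the TPM1 rechallenge term, and no count filter gave -0.0004 for ACTA2 in week 2 continuous minus week 1. MYH11 in week 4 continuous minus untreated cells ran between -0.35 and 0.40 with libraries left out, and was -0.089 under the replicate block. The cause was not tested.

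Same-numbered libraries did not vary together (correlations of their deviations between -0.21 and 0.11). No pairing by number was thus detected, which does not exclude one. With a replicate block, the number of genes called was 9 for week 4 continuous against week 1 (8 without it), 2 for week 2 off against untreated (3), 7 for week 4 off against untreated (8) and as without it elsewhere. ACTG2 was -0.021 in untreated minus vector cells under the replicate block. Depth limits ACTG2, CNN1, MYL9 and MYOCD where they held few counts: at 0 counts, the floor of 3 counts over untreated cells was 0.0365 CPM.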
